A study of Mus musculus with 6 samples.

Results

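The 10 genes described here are transcription factors, feedback inhibitors and effectors of the integrated stress response: Atf4, Atf5, Atf3, Ddit3, Trib3, Ppp1r15a, Chac1, Sesn2, Ddit4 and Eif4ebp1. They were taken by gene name from a table of 20040 entries, all 10 were present, and all 10 were among the 14983 genes that were tested, those averaging 0.5 TPM or more. TPM is a share of transcripts scaled for gene length, so levels can be set side by side between genes, and each library sums to 1000000. The libraries hold mRNA of neurons grown from the cortex of C57BL/6 mice at embryonic day 18, 3 from KDM6B knockout (KO) neurons and 3 from wild-type (WT) neurons. Kdm6b encodes an enzyme that demethylates lysine 27 on histone H3, and the series asks about its role in cognitive functions. The sources used here do not give the knockout allele, whether it is deleted in all cells, the days in culture or the number of embryos per library. The labels tie no replicate to its own culture or litter, so p-values cover only library-to-library spread, which may be technical.

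In the integrated stress response, kinases that sense endoplasmic reticulum stress, amino acid shortage, haem shortage or double-stranded RNA phosphorylate the translation factor eIF2, which lowers protein synthesis in general while the mRNA of ATF4 is translated more. ATF4 then raises the transcription of other bZIP factors (ATF5, ATF3 and CHOP, the product of Ddit3), of amino acid enzymes and transporters, and of inhibitors that limit the response, among them TRIB3 and the eIF2 phosphatase subunit GADD34, the product of Ppp1r15a. In neurons the pathway is known for its part in protein synthesis-dependent plasticity and memory. An mRNA level reports neither eIF2 phosphorylation nor the translation of Atf4, which were not measured.

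ATF4 binds, as a dimer with C/EBP factors, a composite element whose core is written TGATGNAA, or TTNCATCA on the other strand. Windows from 250 bases before to 50 bases after a RefSeq start on GRCm38.p6 were matched for 9 of the 10 genes, all but Eif4ebp1. Those 9 genes had 10 windows, and 3 of the genes held that core. Among all 32851 windows of that length, counted by window and not by gene, 3.97% held it. The form TGATGCAA (TTGCATCA on the other strand), a subset of the same matches, was in 0.89% of windows, and the cAMP response element TGACGTCA, which reads the same on both strands, was in 1.79%. The stretches with a match are shown because they place the letters of a known ATF4 element beside genes whose levels are given below. The capitals mark the motif, each stretch reads 5′ to 3′ on the strand of its gene, and a match is a description of letters and not a bound site. The Atf3 stretch lies at chr1:191183390-191183489, minus strand, Chac1 at chr2:119351003-119351102, plus strand, Trib3 at chr2:152344028-152344057, minus strand, and Ppp1r15a, with the cAMP response element, at chr7:45526269-45526368, minus strand.
Atf3: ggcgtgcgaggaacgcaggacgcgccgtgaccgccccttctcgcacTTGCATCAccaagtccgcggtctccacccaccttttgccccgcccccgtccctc
Chac1: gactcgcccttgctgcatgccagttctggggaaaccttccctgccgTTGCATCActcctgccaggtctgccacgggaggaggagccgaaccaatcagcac
Trib3: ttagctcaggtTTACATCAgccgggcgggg
Ppp1r15a: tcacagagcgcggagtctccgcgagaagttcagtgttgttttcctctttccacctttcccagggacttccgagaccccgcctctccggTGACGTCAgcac
Counted from the RefSeq start of the window, the first base of the motif lay at -110 in Atf3 and at -193 in Chac1. It lay at -12 in Ppp1r15a and at +15, past that start, in Trib3. RefSeq starts can differ from the gene positions given below, which are from GENCODE. By those positions the Atf3 window lies inside the gene, and the Trib3 motif lies upstream of the gene. The windows of Atf4, Atf5, Ddit3, Sesn2 and Ddit4 held none of these letters, which says nothing of more distant elements or of binding.

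The depth behind the values was at least 21434763, 23408748 and 19682290 counts in KO replicates 1, 2 and 3, and at least 21433151, 20645204 and 22588959 counts in WT replicates 1, 2 and 3. Kdm6b had 11.2, 11.1 and 12.0 TPM in the KO libraries and 30.9, 30.3 and 30.7 TPM in the WT libraries, so every library labelled KO was below every library labelled WT. The groups also differed in sex-linked RNA: the Y-linked gene Ddx3y averaged 0.135 ± 0.064 TPM in KO and 26.1 ± 0.244 TPM in WT (SD, n = 3 each), and Xist averaged 231.5 ± 8.34 TPM in KO and 74.0 ± 3.49 TPM in WT. Genotype and the sex mix of the cultures therefore cannot be told apart in any result here. All 10 genes are autosomal.

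Of the 10 genes, 8 were higher in KO neurons and none was lower in limma on log2(TPM + 0.5), with 0.05 as the threshold for the adjusted p. Over all 14983 tested genes, 4.15% were called higher and 6.74% lower. The 10 genes were chosen with earlier results of these data known, so the contrast is a description. In 9 of the 10 genes every KO library lay above every WT library, a pattern that 12.5% of all tested genes had. The exceptions to the test were Sesn2, whose groups were separate, and Ppp1r15a, whose groups overlapped. The median log2 fold change over the 10 genes was 0.50, beside -0.02 over all tested genes, and 5 of the 10 exceeded 0.5. The sum over the 10 genes was 721.8, 679.8 and 703.6 TPM in the KO libraries and 561.1, 557.7 and 519.9 TPM in the WT libraries. Without KO replicate 2 only 5 of the 10 genes passed, because Atf3, Ddit3 and Trib3 missed the threshold, and 5 passed without the variance trend in limma, where Ddit3, Trib3 and Ddit4 missed it. With TPM as deposited 38.1% of all calls in the table were higher in KO, and with median centring 53.1% and with quantile normalization 49.2% were, but 9 of the 10 genes passed under both of these scalings.

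**Figure D1:**
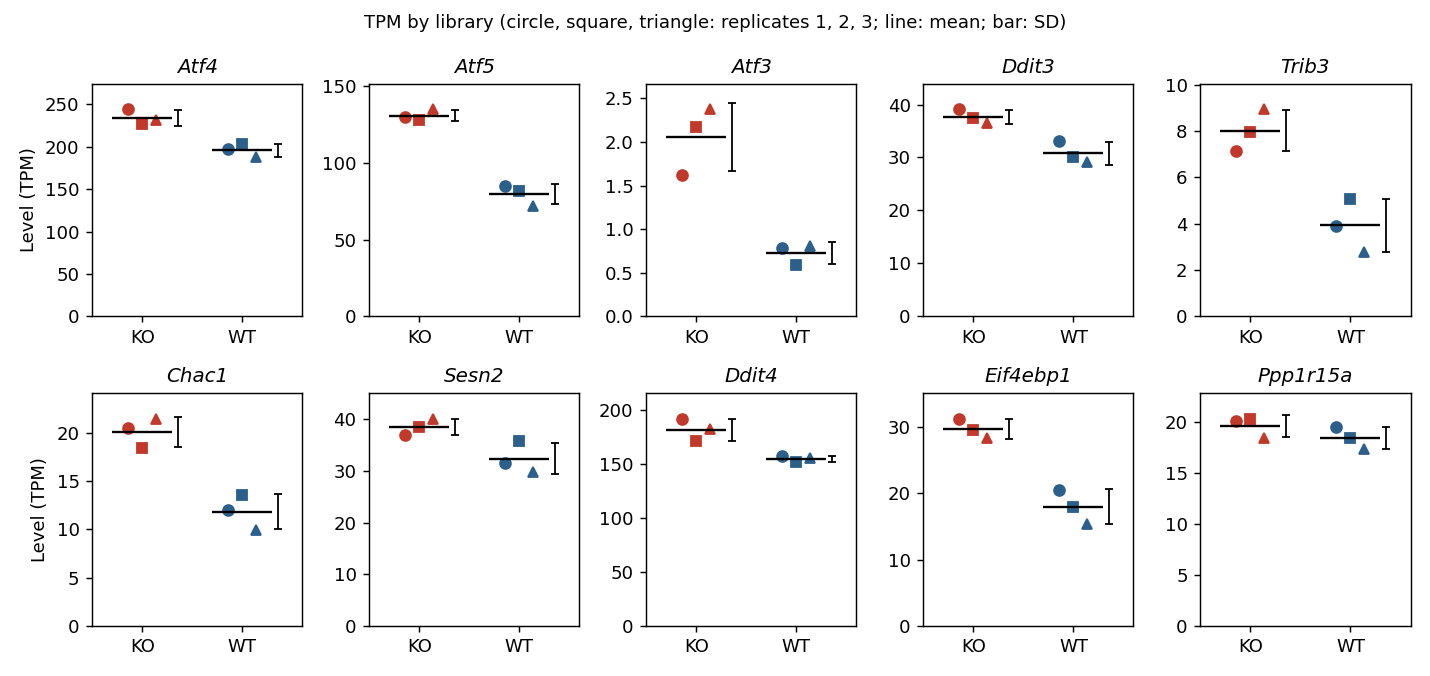
Level of each of the 10 genes in TPM (vertical axes from 0, a different scale in each panel) in the 3 KO libraries (left in each panel) and the 3 WT libraries (right), with points for libraries and bars for the mean and SD. The KO and WT points are separate in every panel but that of Ppp1r15a.

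Atf4, the central factor of the response and already the most abundant of the 10 mRNAs in WT, was modestly higher in KO. It lies on chromosome 15 from 80255184 to 80257541 on the plus strand (GRCm38, as are all positions of genes here) and had 244, 227 and 231 TPM in the KO libraries, against 197, 203 and 188 TPM in the WT libraries. The lowest KO library was 1.119 times the highest WT library. The means were 234 ± 8.98 TPM in KO and 196 ± 7.55 TPM in WT (SD, n = 3 each), a 1.19-fold difference with a log2 fold change of 0.25 ± 0.04 (SE; limma adjusted p = 0.00537). The counts were at least 8768 in KO and 7294 in WT, and the call held in each of the 17 alternative analyses run for Atf4.

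Atf5, a bZIP factor whose mRNA, like that of Atf4, has upstream reading frames that favour its translation when eIF2 is phosphorylated, differed more. On chromosome 7 from 44812256 to 44816658 (minus strand), it had 129.8, 127.7 and 134.8 TPM in the KO libraries, against 85.0, 81.8 and 72.2 TPM in the WT libraries. The KO libraries were within a narrow band, with a coefficient of variation of 2.78% in KO and 8.40% in WT, and the lowest KO value was 1.503 times the highest WT value. Atf5 was 1.64-fold higher in KO (log2 fold change 0.71 ± 0.06 SE; limma adjusted p = 0.000457), and this call held in all 17 alternatives run for it. Only 54 of the 622 genes called higher had a log2 fold change as large as that of Atf5 or larger, the gene itself included. Its exons share 82 bases with Nup62 and 82 with Il4i1, both on the opposite strand, and the sources used here do not give the strand setting of the counting. Nup62 had 31.4, 32.9 and 30.2 TPM in KO and 35.998, 35.03 and 32.3 TPM in WT, and Il4i1 had at most 0.521 TPM in any library. The part of the shared bases in the Atf5 values was not tested.

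Atf3, a stress-induced bZIP factor that is nearly silent in resting neurons and is known as a marker of injured ones, was the scarcest of the 10 mRNAs. On chromosome 1 from 191170296 to 191218039 (minus strand), it had 1.62, 2.18 and 2.37 TPM in the KO libraries, against 0.781, 0.586 and 0.809 TPM in the WT libraries. These values rest on few counts, at least 23, 34 and 31 in the KO libraries and at least 11, 8 and 12 in the WT libraries, yet the lowest KO value was 2.01 times the highest WT value. Atf3 had the highest ratio of the 10 genes, 2.84-fold, and a log2 fold change of 1.05 ± 0.19 (SE; limma adjusted p = 0.0125), which the added 0.5 TPM pulls down at this level. The adjusted p was 0.0537 without KO replicate 2 and 0.0528 without KO replicate 3, so the call was lost without either of these libraries.

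Ddit3, which encodes CHOP, a bZIP factor linked to cell death under prolonged stress, was slightly higher. On chromosome 10 from 127290774 to 127296288 (plus strand), it had 39.1, 37.5 and 36.5 TPM in the KO libraries, against 33.2, 30.1 and 29.1 TPM in the WT libraries. The groups were separate by a margin of 1.10-fold. Ddit3 was 1.22-fold higher in KO (log2 fold change 0.29 ± 0.06 SE; limma adjusted p = 0.0156). Its call was lost without KO replicate 1 (0.0544), without KO replicate 2 (0.0526), without WT replicate 2 (0.0565) and without the variance trend (0.0512), all as limma adjusted p. Exons of Ddit3 share 68 bases with Mars, the methionyl-tRNA synthetase gene on the opposite strand, which had 68.1, 67.7 and 70.2 TPM in KO and 65.03, 66.3 and 61.4 TPM in WT. Every KO library was thus above every WT library for Mars too, and the part of the shared bases in the Ddit3 values was not tested.

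Trib3, a pseudokinase induced by ATF4 and CHOP that binds ATF4 and restrains its activity, had the highest ratio after Atf3. On chromosome 2 from 152337422 to 152344032 (minus strand), it had 7.14, 7.95 and 8.92 TPM in the KO libraries, against 3.90, 5.08 and 2.79 TPM in the WT libraries. The WT libraries varied the most here, with a coefficient of variation of 29.1% in WT, against 11.2% in KO. Trib3 was 2.04-fold higher in KO (log2 fold change 0.97 ± 0.18 SE; limma adjusted p = 0.0153). The limma adjusted p was 0.0536 without KO replicate 2, 0.0628 without KO replicate 3 and 0.0562 without WT replicate 1. It was 0.0533 without the variance trend. The call was thus lost in each of these fits, with a log2 fold change between 0.89 and 0.98.

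Ppp1r15a, which encodes GADD34, the inducible subunit that brings protein phosphatase 1 to eIF2 and so reverses the response, was the gene of the 10 with no separation. On chromosome 7 from 45522916 to 45526268 (minus strand), it had 20.1, 20.3 and 18.4 TPM in the KO libraries, against 19.5, 18.4 and 17.4 TPM in the WT libraries. KO replicate 3 lay among the WT values. Its difference on the log2 scale, 0.09 ± 0.06 (SE), did not pass (limma adjusted p = 0.431), and the adjusted p stayed between 0.248 and 0.723 over the 17 alternatives run for it. Its constitutive paralogue Ppp1r15b, which also binds protein phosphatase 1, had 50.3 ± 1.54 TPM in KO and 49.9 ± 0.563 TPM in WT (SD, n = 3 each; limma adjusted p = 0.876).

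Among the effectors, Chac1, a gamma-glutamylcyclotransferase that degrades glutathione, showed a clear difference. On chromosome 2 from 119351229 to 119354381 (plus strand), it had 20.5, 18.4 and 21.5 TPM in the KO libraries, against 12.0, 13.6 and 9.93 TPM in the WT libraries. The lowest KO value was 1.36 times the highest WT value. Chac1 was 1.71-fold higher in KO (log2 fold change 0.75 ± 0.11 SE; limma adjusted p = 0.00495), and the call held in all 17 alternatives run for it.

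A group of 3 effectors acts on growth signalling through mTORC1, the kinase complex that promotes translation. Eif4ebp1 encodes 4E-BP1, which holds back the cap-binding protein eIF4E when mTORC1 is inactive, and it differed most of these. On chromosome 8 from 27260329 to 27276674 (plus strand), it had 31.3, 29.5 and 28.4 TPM in the KO libraries, against 20.6, 18.0 and 15.4 TPM in the WT libraries. Eif4ebp1 was thus separate by 1.38-fold between the closest libraries and was 1.65-fold higher in KO on the means (log2 fold change 0.72 ± 0.10 SE; limma adjusted p = 0.00355), in all 17 alternatives run for it.

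Ddit4 encodes REDD1, an inhibitor of mTORC1 that acts through the TSC complex and is also induced by hypoxia and glucocorticoids. On chromosome 10 from 59949669 to 59951834 (minus strand), it had 191, 171 and 182 TPM in the KO libraries, against 157, 152 and 155 TPM in the WT libraries. Ddit4 was 1.17-fold higher in KO (log2 fold change 0.23 ± 0.04 SE; limma adjusted p = 0.0116), and the adjusted p was 0.0569 without the variance trend.

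Sesn2 encodes sestrin 2, a leucine sensor that restrains mTORC1 through GATOR2. On chromosome 4 from 132492032 to 132510501 (minus strand), it had 36.9, 38.5 and 40.1 TPM in the KO libraries, against 31.5, 35.8 and 29.9 TPM in the WT libraries. The groups were separate by only 1.03-fold, WT replicate 2 being the nearest to KO. Its log2 fold change of 0.25 ± 0.07 (SE) did not pass (limma adjusted p = 0.0540). Sesn2 passed in 6 of its 17 alternatives, with a limma adjusted p of 0.0421 at a filter of 2 TPM, 0.0371 with a robust trend, 0.0402 with median centring, 0.0415 with quantile normalization, 0.00161 with limma voom on recovered counts and 0.0168 without WT replicate 2, and the value was 0.158 without WT replicate 1.

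**Figure D2:**
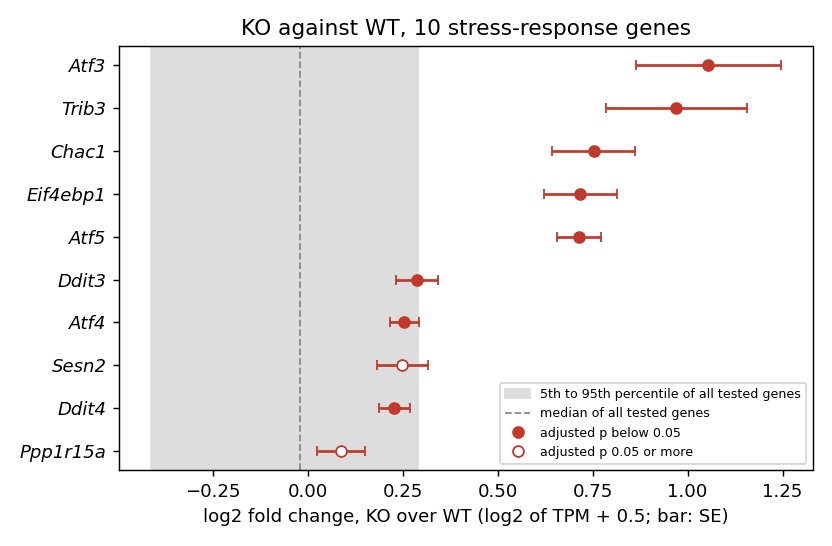
Log2 fold change, KO over WT, of each of the 10 genes (horizontal axis) with its standard error from limma, in filled points where the adjusted p was below 0.05, over a grey band from the 5th to the 95th percentile of all tested genes (-0.41 to 0.29). Points of all 10 genes lie right of 0, between 0.09 for Ppp1r15a and 1.05 for Atf3.

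The libraries of a group did not give the 10 genes the same order. WT replicate 3 was the lowest WT library in 8 of the 10 genes, in 67.3% of 55 ATF4 targets outside the 10 and in 36.9% of all tested genes, and it also held the most ribosomal RNA precursor, 6990 TPM of Rn45s beside 3750 to 4821 TPM in the other 5 libraries. Without it none of the 8 calls was lost. Trib3, the gene in which it stood lowest, then had a log2 fold change of 0.77 and a limma adjusted p of 0.0257. Among the KO libraries the lowest was replicate 1 for 3 genes, replicate 2 for 4 and replicate 3 for 3.

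**Figure D3:**
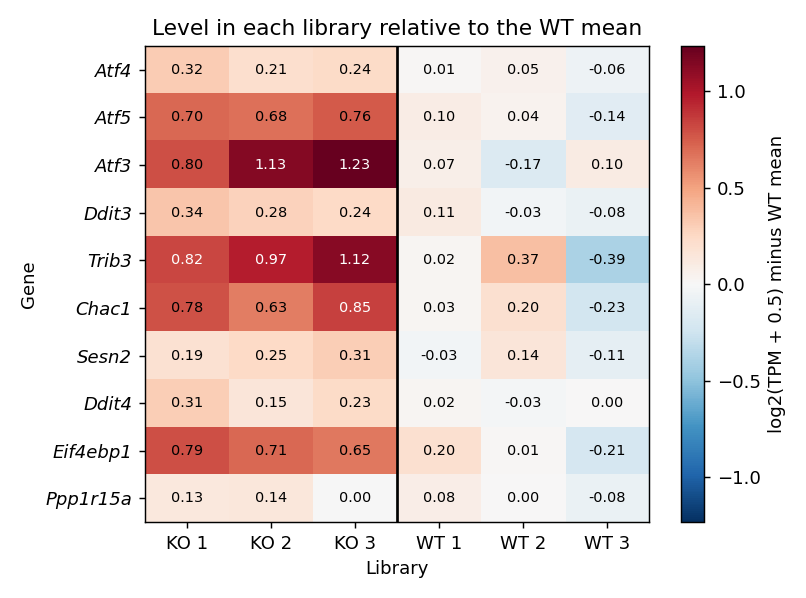
Log2 of TPM plus 0.5 minus the WT mean of the same gene, for each of the 10 genes (rows) in the 3 KO libraries (left) and the 3 WT libraries (right). WT replicate 3 holds the lowest WT value in 8 of the 10 rows.

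Of the 10 genes, 6 were set against their closest relatives as a share of the summed TPM of the family. Trib3 made up 7.96 ± 1.17% of the summed TPM of the tribbles genes in KO and 4.24 ± 1.19% in WT (SD, n = 3 each), and Eif4ebp1 made up 32.5 ± 1.15% of the 4E-BP genes in KO and 22.7 ± 1.75% in WT. Chac1 held 50.6 ± 1.67% of its pair with Chac2 in KO and 40.2 ± 4.74% in WT, and Sesn2 held 20.9 ± 0.702% of the sestrins in KO and 17.3 ± 1.58% in WT. The share of Ddit4 in its pair with Ddit4l was 95.5 ± 0.656% in KO and 92.3 ± 0.474% in WT. In these 5 families every KO library was above every WT library, which gives p = 0.1 in a two-sided exact permutation test, the smallest that 3 against 3 libraries allow (0.136 after Benjamini-Hochberg adjustment over 15 shares and ratios). The share of Ppp1r15a in its pair with Ppp1r15b overlapped between the groups, at 28.1 ± 1.32% in KO and 27.0 ± 1.38% in WT (exact permutation p = 0.5).

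Among the 9 relatives outside the 10 genes, 1 was higher and 2 were lower, beside 4.15% and 6.74% of all tested genes. Ddit4l, a paralogue of Ddit4 that also inhibits mTORC1, went the other way from it: it had 8.51 ± 0.845 TPM in KO and 12.9 ± 0.729 TPM in WT (SD, n = 3 each; log2 fold change -0.58 ± 0.08 SE; limma adjusted p = 0.00488). Trib1 was higher, at 11.1 ± 0.916 TPM in KO and 8.47 ± 0.404 TPM in WT (limma adjusted p = 0.0256), and lost its call in 5 alternatives, 4 of them without 1 library (KO replicates 1 and 2, WT replicates 1 and 2) with an adjusted p of up to 0.0895. Sesn1, a sestrin induced by p53, was lower, at 39.7 ± 1.28 TPM in KO and 44.99 ± 2.22 TPM in WT (limma adjusted p = 0.0479), and lost its call in 10 alternatives, among them the 5 that left out a library other than WT replicate 1, with an adjusted p of up to 0.134. Trib2, Chac2, Sesn3, Eif4ebp2, Eif4ebp3 and Ppp1r15b did not pass.

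The other 9 genes were also set against Atf4 in the same library. For each 100 TPM of Atf4 there were 53.2, 56.3 and 58.3 TPM of Atf5 in the KO libraries and 43.0, 40.4 and 38.4 TPM in the WT libraries. Trib3 (3.43 ± 0.473 in KO, 1.99 ± 0.509 in WT, SD, n = 3 each), Chac1 (8.61 ± 0.610 in KO, 6.01 ± 0.700 in WT), Eif4ebp1 (12.7 ± 0.380 in KO, 9.16 ± 1.15 in WT) and Atf3 (0.884 ± 0.192 in KO, 0.372 ± 0.074 in WT) were likewise higher per 100 TPM of Atf4 in every KO library. Ddit3, Sesn2 and Ddit4 overlapped between the groups on this ratio, at 16.1, 16.5 and 77.5 TPM in KO and 15.7, 16.5 and 78.9 TPM in WT. Ppp1r15a was the 1 gene lower per 100 TPM of Atf4 in every KO library, at 8.40 ± 0.511 in KO and 9.41 ± 0.426 in WT. Its own mean was not lower, at 19.6 TPM in KO and 18.4 TPM in WT, while Atf4 was 1.19-fold higher in KO. Each separated ratio had the smallest exact permutation p of 0.1, 0.136 after adjustment over the same 15 comparisons.

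**Figure D4:**
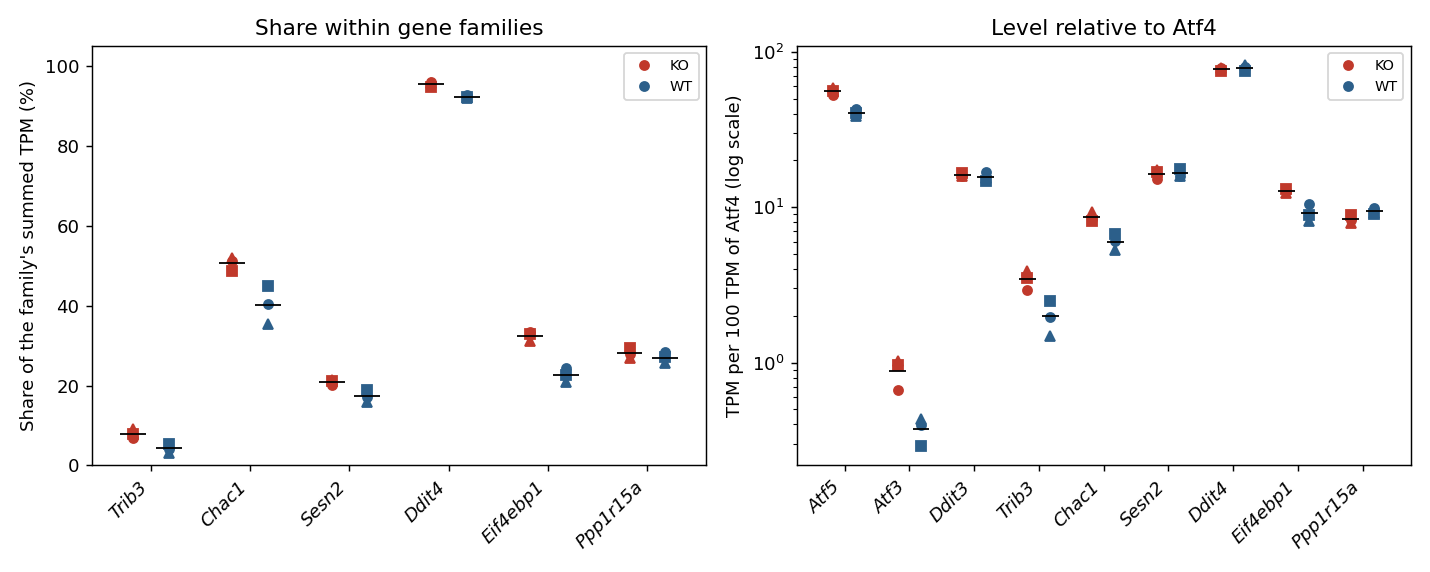
Left, the share of each gene in the summed TPM of its family in percent, and right, its TPM per 100 TPM of Atf4 (log scale), with points for libraries and lines for the mean, KO left of WT. The family shares of 5 genes and the Atf4 ratios of 6 genes do not overlap between the groups, Ppp1r15a being the 1 gene lower in KO on the ratio.

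Genes known as ATF4 targets outside the 10 were read from lists. In amino acid synthesis and transport, 15 of 22 tested genes were higher and none lower, beside 4.15% and 6.74% of all tested genes. The median log2 fold change of the list was 0.28. In 18 of 22 every KO library was above every WT library, as in 12.5% of all tested genes. In 1 of 22, Got1, every KO library was below every WT library, as in 19.2% of all tested genes, but it did not pass (limma adjusted p = 0.0621). Slc7a5, the light chain of the large neutral amino acid transporter, had 215, 203 and 213 TPM in the KO libraries and 147, 149 and 125 TPM in the WT libraries (1.49-fold; limma adjusted p = 0.0015). Phgdh, the first enzyme of serine synthesis, averaged 146 ± 4.13 TPM in KO and 114 ± 5.00 TPM in WT (SD, n = 3 each; 1.28-fold; limma adjusted p = 0.00145). Mthfd2, a mitochondrial folate enzyme, and Slc7a11, the cystine transporter that supplies glutathione synthesis, were 1.39-fold and 1.28-fold higher. The count called higher was 9 of 22 without KO replicate 2 and also 9 without the variance trend. In this list 1 gene was called lower with quantile normalization (16 higher) and 1 without KO replicate 3 (11 higher). Asns, the asparagine synthetase often used to mark the response, had 198, 194 and 192 TPM in KO and 187, 187 and 172 TPM in WT, which did not pass (limma adjusted p = 0.130).

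Differences in the list of aminoacyl-tRNA synthetases, which also holds the tRNA export gene Xpot, were small and in 1 direction. Of 13 tested genes, 1 was higher and none lower, with a median log2 fold change of 0.09, while the KO mean was higher in all 13 and 9 had every KO library above every WT library, beside the 12.5% of all tested genes. Eprs, the glutamyl-prolyl-tRNA synthetase, was 1.09-fold higher (limma adjusted p = 0.0334) and failed the threshold in each fit without 1 library (adjusted p of 0.0558 to 0.0986), so that no gene of the list was then called, while 4 of the 13 were higher with median centring or quantile normalization and 6 with limma voom on recovered counts. Among other effectors, 6 of 20 tested genes were higher and none lower, with a median log2 fold change of 0.18. Pck2, the mitochondrial phosphoenolpyruvate carboxykinase, had 16.9, 15.6 and 17.4 TPM in the KO libraries and 10.1, 10.2 and 9.68 TPM in the WT libraries (1.67-fold; limma adjusted p = 0.000609). Cdkn1a, the p21 cell cycle inhibitor and also a p53 target, was 1.26-fold higher, Tsc22d3, an X-linked gene also induced by glucocorticoids, 1.21-fold, and Map1lc3b, an autophagosome protein, 1.11-fold. Counting each gene once, 22 of 55 targets were higher and none lower, with a median log2 fold change of 0.17, against the 4.15% and 6.74% of all tested genes given above. The count was 14 of 55 without WT replicate 1, between 14 and 19 over the 6 fits without 1 library, 13 without the variance trend and 35 with limma voom on recovered counts. With quantile normalization 29 were higher and 1 was lower.

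**Figure D5:**
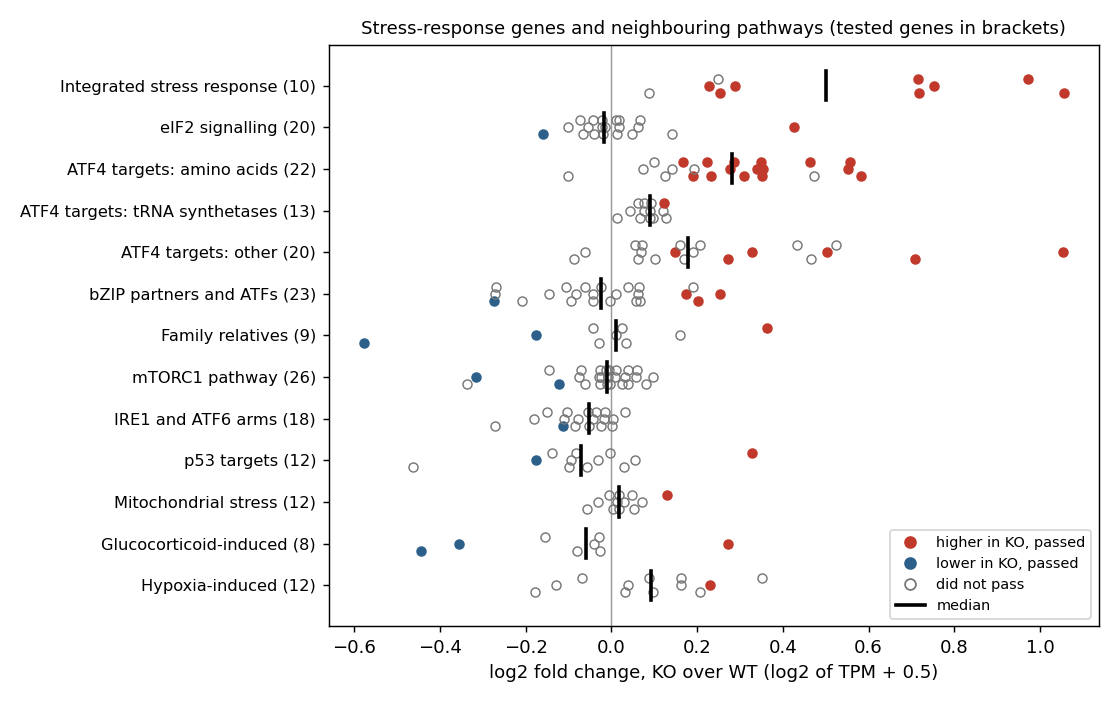
Log2 fold change, KO over WT, of each tested gene (points, horizontal axis) in the 10 stress response genes and in each list (rows), with the median as a line and called genes coloured. The lists of ATF4 targets in amino acid metabolism lie mostly right of 0, and those of eIF2 signalling, mTORC1 and the IRE1 and ATF6 arms lie around or left of 0.

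Upstream, the mRNAs of the eIF2 kinases, eIF2, eIF2B and the phosphatases differed little: 1 of 20 was higher and 1 lower, beside 4.15% and 6.74% of all tested genes. The median log2 fold change of the list was -0.02 (0.01 with median centring). The kinase genes Eif2ak1, Eif2ak2, Eif2ak3 and Eif2ak4 did not pass, and Eif2ak3, which encodes PERK, had 26.3, 23.4 and 24.8 TPM in KO and 23.0, 21.0 and 23.4 TPM in WT (limma adjusted p = 0.181). The higher gene was Eif2s3x, the X-linked gene of the eIF2 gamma subunit, with 243 ± 5.66 TPM in KO and 181 ± 4.75 TPM in WT (SD, n = 3 each; 1.35-fold). Its Y-linked copy Eif2s3y was near 0 in KO, at 0.157 ± 0.273 TPM, and had 43.7 ± 0.152 TPM in WT, so the sum of both copies was 244 ± 5.89 TPM in KO and 225 ± 4.83 TPM in WT, a 1.08-fold difference. Impact, an inhibitor of the amino acid sensing kinase GCN2, was lower, at 0.895 times the WT level (limma adjusted p = 0.0270), and lost its call in 7 alternatives, 5 of them without 1 library (every library but KO replicate 1), with an adjusted p of up to 0.0804 there.

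The IRE1 and ATF6 arms of the unfolded protein response, which answer endoplasmic reticulum stress beside the PERK arm, gave no higher call. Of 18 tested genes none was higher and 1 was lower, beside 4.15% and 6.74% of all tested genes, with a median log2 fold change of -0.05. In 7 of the 18 every KO library was below every WT library, as in 19.2% of all tested genes. Hspa5, which encodes the chaperone BiP, had 371, 378 and 366 TPM in the KO libraries and 397, 404 and 405 TPM in the WT libraries (0.925-fold; limma adjusted p = 0.0174). This call was lost in 5 alternatives, among them those without KO replicate 1, KO replicate 3 and WT replicate 2 (adjusted p of up to 0.0651 there). Dnajb9, a co-chaperone induced through IRE1 and XBP1, overlapped between the groups, at 48.2, 43.5 and 44.5 TPM in KO and 44.3, 44.2 and 44.6 TPM in WT.

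Of the possible bZIP partners and other ATF factors, 3 of 23 tested genes were higher and 1 was lower, beside 4.15% and 6.74% of all tested genes. The AP-1 subunits Jun and Jund were 1.15-fold and 1.129-fold higher in KO (limma adjusted p = 0.00409 and 0.00544), and Fosl2 was 1.19-fold higher (0.0256). Nfe2l2, which encodes the oxidative stress factor NRF2, was lower, at 0.824 times the WT level (limma adjusted p = 0.0226). Fosl2 missed the threshold without KO replicate 1, KO replicate 2, WT replicate 1 or WT replicate 2 (adjusted p of up to 0.0926), and Nfe2l2 without KO replicate 2, KO replicate 3, WT replicate 1 or WT replicate 3 (up to 0.0857).

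The mTORC1 pathway around Sesn2, Ddit4 and Eif4ebp1 had none of 26 tested genes higher and 2 lower, beside 4.15% and 6.74% of all tested genes. These 2 were Rragd at 0.919 and Rps6kb2 at 0.801 times the WT level. Each lost its call in at least 4 of the 6 fits without 1 library (adjusted p of up to 0.0748 for Rragd and 0.124 for Rps6kb2). Among p53 targets 1 of 12 was higher (Cdkn1a) and 1 lower (Sesn1), among hypoxia-induced genes 1 of 12 was higher (Pdk1) and none lower, and among mitochondrial stress genes 1 of 12 was higher (Hspa9, 1.09-fold) and none lower, beside the 4.15% of all tested genes called higher. The hypoxia count was 3 of 12 with median centring and without KO replicate 2, 5 with limma voom on recovered counts, and 0 without KO replicate 3, without any 1 of the WT libraries, without the variance trend, without the filter and with the replicate block. Of 8 glucocorticoid-induced genes, 1 was higher (Tsc22d3) and 2 were lower, beside the same 4.15% and 6.74%. The lower genes were Zbtb16 at 0.774 and Klf9 at 0.737 times the WT level. The limma adjusted p of Pdk1 was up to 0.115 in the fits without 1 library, and Klf9 lost its call without WT replicate 1 (0.0553).

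The genes with the profile most like the median of the 10 over the 6 libraries, among 10682 candidates with a mean of at least 5 TPM, were Aldoc, Mthfd2, Hgf, Penk and Scrt2, with root mean square differences of 0.033, 0.034, 0.044, 0.045 and 0.047 on the log2 scale. Aldoc, a brain aldolase found mostly in astrocytes, had 981, 967 and 948 TPM in the KO libraries and 709.6, 695 and 677 TPM in the WT libraries. Penk, the proenkephalin gene, averaged 59.6 ± 0.715 TPM in KO and 41.5 ± 1.01 TPM in WT (SD, n = 3 each). Mthfd2 is itself in the list of ATF4 targets, and the likeness was a description over 6 libraries that fall into 2 groups.

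The labelled cell type was checked against its markers. Of the 6 neuron markers 1 was higher (Tubb3) and 1 lower (Rbfox3), and they summed to 6310, 6400.3 and 6408 TPM in the KO libraries and 6089, 6060.3 and 6059 TPM in the WT libraries. Astrocyte markers summed to 2032 to 2146 TPM in KO and 1795 to 1849 TPM in WT, but most of the list ran the other way from its sum. The abundant Aldoc (965 ± 16.7 TPM in KO and 694 ± 16.5 TPM in WT) and Slc1a3 (732 ± 25.7 TPM in KO and 654 ± 4.76 TPM in WT) were called higher and Aldh1l1 was called lower. In 4 of the 6, Gfap, Aqp4, Gja1 and Aldh1l1, every KO library was below every WT library, and the median log2 fold change of the list was -0.15. Gfap, for example, had 82.8 ± 14.02 TPM in KO and 109 ± 9.89 TPM in WT (SD, n = 3 each; limma adjusted p = 0.0698). Fibroblast markers summed to 45.1 to 57.6 TPM in KO and 35.2 to 36.3 TPM in WT, with 3 of 5 higher (Col1a1, Dcn and Lum). Microglial markers summed to 1.38 to 2.89 TPM in KO and 0.987 to 1.39 TPM in WT, and none of the 6 reached the level for testing. Oligodendrocyte lineage markers summed to 512 to 538 TPM in KO and 508 to 544 TPM in WT, with 1 lower, endothelial and mural markers to 15.7 to 16.95 TPM in KO and 18.0 to 19.6 TPM in WT, with 1 lower (Kdr, 5.62 ± 0.576 TPM in KO and 9.21 ± 0.828 TPM in WT) while the means of Pdgfrb and Rgs5 were higher in KO, and progenitor markers to 195 to 211 TPM in KO and 193 to 209 TPM in WT, with none called. No marker of these lists was at 0 in every library, and zeros in single libraries were not counted. Every KO library was above every WT library in 5 of 5 fibroblast, 2 of 6 neuron and 2 of 6 astrocyte markers, and in 12.5% of all tested genes. The share of all tested genes called was 4.15% higher and 6.74% lower. The part of these markers in the results was not tested, and in such bulk samples more cells of a type and more RNA per cell cannot be told apart.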

How the data were processed

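Values are those of the authors' deposited table, in TPM (each column sums to 1000000) although its name says FPKM. The submitters' processing notes name build mm10, edgeR, featureCounts, TopHat, Picard 1.127, FastQC 0.11.2 and bcl2fastq 2.17, with no role stated. The sources used here do not give the annotation or strand setting, and a share of a library total falls where other genes rise. Genes averaging 0.5 TPM or more over 6 libraries were compared, KO with WT, by limma 3.58.1 with a variance trend (R 4.3.3) on log2(TPM + 0.5), adjusted by Benjamini-Hochberg over 14983 genes. Fold is the ratio of group means. The log2 scale understates changes of low genes. The members and lists were chosen with earlier results of these data known. Named genes are the 10 genes, Kdm6b, up to 4 called genes of smallest p in each of 12 lists, and the 5 nearest profiles. Other named genes were chosen after their values were seen.

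Products of TPM and length were multiples of a step in each library, so whole counts, as lower limits because a factor common to a gene's 6 values cannot be seen, were recovered for 19369 of 19369 entries above 0 (tolerance 0.001 counts plus 2e-07 of the value). They served for depth and limma voom. Of the 20040 entries 671 were 0 throughout. Positions are from GENCODE M21 on GRCm38. The 17 alternatives changed the pseudocount, filter, variance trend, scaling, chromosomes, block or libraries. The procedure was tested on simulated data.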

Additional observations from a re-analysis of the deposited data

How the results depend on the processing

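Over the table, 1632 genes were called (622 higher, 1010 lower), with 1064 without the variance trend, 2606 by limma voom on recovered counts, and between 838 and 1118 without 1 library (1053, 943 and 954 without KO replicates 1, 2 and 3, 838 and 1051 without WT replicates 1 and 2). The higher and lower calls were 867 and 767 with median centring and 788 and 813 with quantile normalization. Of the 10 genes 8 were called, 5 without the variance trend, and between 5 and 8 without 1 library. The cause of these moves was not tested, beside the smaller number of libraries in the last. Replicate numbers are shared by the groups. Deviations of same-numbered libraries correlated at 0.008, -0.051 and 0.011, and those of the other pairs at -0.036 to 0.027. These values showed no pairing by number, but they cannot exclude a shared litter or culture, which the labels do not give. A fit with the number as a block called 945 genes and again 8 of the 10. Atf4, Atf5, Chac1 and Eif4ebp1 kept their call in all 17 alternatives, and none of the 10 changed sign in any. Depth limits Atf3 most, at 88 counts or more in KO and 31 or more in WT.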
